A study of Mus musculus with 8 samples.

Results

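The Sprouty and Spred genes encode inhibitors that act on the RAS to ERK pathway, and 6 of them, Spry1, Spry2, Spry4, Spred1, Spred2 and Spred3, were followed by gene symbol through the 24421 gene rows of 8 mouse brain libraries. All 6 members passed the filter on low counts and were tested among 15438 genes. The seventh family gene in the tables, Spry3, had 0 counts in all 8 libraries. The 4 KO libraries came from C57BL/6 mice with Otp-Cre, Cicflox/flox and ROSAfsTRAP, and the 4 Control libraries from C57BL/6 mice with Otp-Cre and ROSAfsTRAP but no floxed Cic, so Cre and the ribosome tag were present in every library. The sources used here give neither age nor sex. Otp-Cre acts in cells that have expressed the homeobox gene Otp, the tagged ribosomes were pulled down from dissected hypothalamus and medial amygdala (translating ribosome affinity purification), and what was counted is RNA that came down with them, which can include RNA of other cells. In such bulk RNA, a smaller number of cells of a type and less RNA in each cell cannot be told apart.

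Growth factors activate receptor tyrosine kinases, which load RAS with GTP and start the kinase chain RAF, MEK and ERK. Sprouty proteins share a cysteine-rich domain at the carboxyl end and interfere with this chain between the receptor and RAF. Spred proteins carry a similar domain at that end and an EVH1 domain at the other, through which they bring neurofibromin, a protein that switches RAS off, to the membrane. Many of these genes are themselves induced by ERK, so the pathway raises its own inhibitors. Capicua, the DNA-binding repressor encoded by Cic, sits at the end of the chain: ERK relieves its repression, and Spry4 and Spred genes are among those it is known to bind in other systems.

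The libraries held 33223878 to 49587839 gene counts in KO and 38171319 to 57300362 in Control. Cic measured 34.5 to 59.3 CPM (counts scaled by library size and, with TMM, by library composition) in KO, against 72.4 to 103 CPM in Control, without overlap, and the mean KO level was 46.7% of Control. Counts cover the whole gene, including exons outside a deletion. All 6 markers of the Otp lineage had counts and a positive log2 fold change, and 0 passed. Of these 6 markers, 2 were higher at an unadjusted p under 0.05 in edgeR, against 6.06% of all genes tested. The median was 0.47 for the 6 markers, against 0.44 for the 6 members. The part of this in the members' values was not tested. The summed level of the Otp lineage markers was 221 to 360 CPM in KO, against 213 to 289 CPM in Control. Arnt2 (mean of all libraries 206 CPM) and Sim1 (18.4 CPM) were the most abundant. Otp itself was low at 4.96 ± 2.54 CPM in KO and 3.45 ± 1.14 CPM in Control (SD, n = 4 each). Neuronal markers summed to 12168 to 16353 CPM in KO, against 11899 to 13961 CPM in Control, with Snap25 at 11070 CPM on average and Stmn2 at 714 CPM. Of the 8 neuronal markers, 7 had a positive log2 fold change (median 0.12) and 0 passed. At an unadjusted p under 0.05 in edgeR, 1 of the 8 was higher, against 6.06% of all genes tested.

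In KO, Spry4 rose 2.62-fold and Spred3 rose 2.42-fold. Spred2 and Spred1 had log2 fold changes of 0.52 and 0.36 and did not pass the test, although their groups did not overlap, and Spry2 and Spry1 had values of -0.02 and -0.18 with overlapping groups. Over all genes tested, 2 of the 6 members rose and 0 fell at an adjusted p of 0.05 in edgeR's quasi-likelihood test, where 0.194% of all genes were higher in KO and 0.0648% lower. At an unadjusted p of 0.05, 4 of 6 were higher, against 6.06% of all genes. The same 4 had every KO library above every Control library, which held for 3.01% of all genes. The median log2 fold change was 0.44 over the 6 members and 0.02 over all genes tested. Fold changes and p-values below are KO over Control from that fit, with p adjusted by Benjamini-Hochberg over all 15438 genes, and the standard error (SE) is that of the difference of mean log2 CPM.

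**Figure D1:**
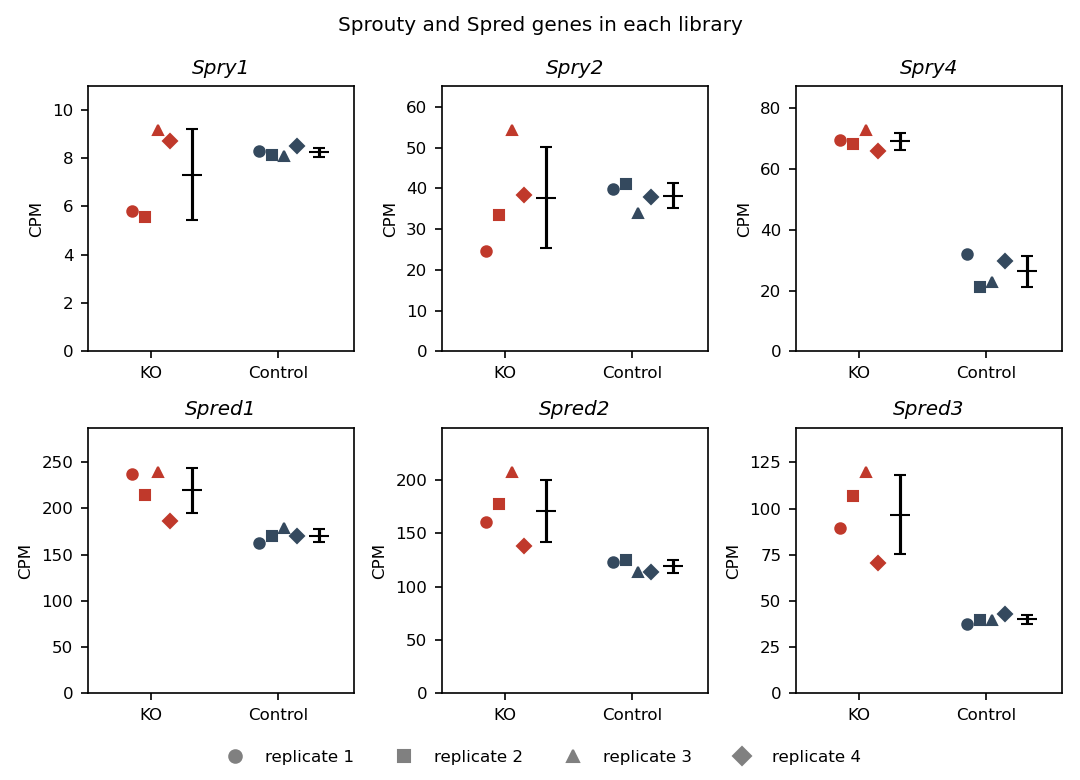
Level of each member in CPM (vertical axis from 0, own scale in each panel) in the 4 KO and the 4 Control libraries, 1 symbol per replicate number, with mean and SD beside them. Spry4 and Spred3 separate most, Spred1 and Spred2 separate narrowly, and for Spry1 and Spry2 the KO libraries spread around the Control libraries.

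Among the Sprouty genes, Spry4 was the member that moved. It encodes a Sprouty protein that restrains fibroblast growth factor signalling in mouse development. Spry4 measured 69.5, 68.2, 72.8 and 66.0 CPM in KO replicates 1 to 4, against 31.9, 21.1, 22.8 and 29.6 CPM in Control replicates 1 to 4. The KO libraries lay close together (coefficient of variation 4.11%) and the Control libraries less so (19.7%), with replicates 1 and 4 above replicates 2 and 3. Control replicates 1 and 4 also had the higher summed microglial markers (68.4 and 65.3 CPM, against 24.0 and 30.3 CPM in Control replicates 2 and 3). Their oligodendrocyte and endothelial marker sums were likewise the highest in Control. In KO, by contrast, replicate 3 had the lowest microglial sum (24.1 CPM) and the highest Spry4. The part of such cells in the Spry4 values was not tested. The lowest KO library stood at 66.0 CPM and the highest Control library at 31.9 CPM. Spry4 rose 2.62-fold (log2 fold change of 1.39 ± 0.15 SE at an edgeR adjusted p of 6.42e-05) and had the smallest p of all genes tested, at rank 1. The counts behind it were 2142 to 3373 in KO and 860 to 1863 in Control.

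Spry4 (ENSMUSG00000024427.7) lies on chromosome 18 from 38586247 to 38601415 on the minus strand of GRCm38, and no annotated gene with a row in the tables overlaps it. Of its nearest listed neighbours, Arhgap26, a GTPase-activating protein gene that begins 75303 bases beyond the 5′ end of Spry4, rose too. Arhgap26 measured 126 to 184 CPM in KO, against 81.3 to 102 CPM in Control (log2 fold change of 0.83 ± 0.13 SE at an edgeR adjusted p of 0.00437). Ndfip1, which encodes an adaptor of NEDD4-type ubiquitin ligases and lies 120944 bases away on the other side, had 300.4 to 348 CPM in KO, against 357 to 396 CPM in Control, and did not pass (log2 fold change of -0.18 at an edgeR adjusted p of 0.604).

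Spry2 encodes a Sprouty protein that binds the ubiquitin ligase CBL and the adaptor GRB2. It measured 24.7, 33.3, 54.2 and 38.4 CPM in KO replicates 1 to 4, against 39.9, 41.1, 34.0 and 38.0 CPM in Control replicates 1 to 4. KO replicate 3 was above, and KO replicates 1 and 2 below, every Control library, so the KO range enclosed the Control range. The means were 37.7 ± 12.4 CPM in KO and 38.2 ± 3.12 CPM in Control (SD, n = 4 each), and Spry2 did not pass (log2 fold change of -0.02 ± 0.24 SE at an edgeR adjusted p of 0.982). The sign of this value depended on the libraries used: it was 0.12 without KO replicate 1, 0.02 without KO replicate 2 and 0.01 without Control replicate 2. Spry2 (ENSMUSG00000022114.5) lies on chromosome 14 from 105891947 to 105896819 on the minus strand.

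Spry1, known in mouse for limiting RET signalling in the kidney, had the fewest counts of the members. It measured 5.79, 5.58, 9.16 and 8.72 CPM in KO replicates 1 to 4, against 8.28, 8.12, 8.10 and 8.51 CPM in Control replicates 1 to 4. KO replicates 1 and 2 were below all Control libraries and KO replicates 3 and 4 above them. The Control libraries were within a coefficient of variation of 2.29%, against 25.8% in KO. Spry1 did not pass (log2 fold change of -0.18 ± 0.19 SE at an edgeR adjusted p of 0.837), on counts of 243 to 370 in KO and 306 to 484 in Control. Spry1 (ENSMUSG00000037211.12) is a plus-strand gene on chromosome 3, from 37639947 to 37644598. It shares 710 exon bases with Gm42922, an unlisted gene of unknown status that runs the other way. The library type does not mark strand, so reads in those bases could come from either gene.

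Spred3 was the Spred gene with the largest fold change. Its protein lacks a working KIT-binding domain, which SPRED1 and SPRED2 have, and its expression is known to be strongest in brain. Spred3 measured 89.7, 107, 120 and 70.4 CPM in KO replicates 1 to 4, against 37.3, 39.7, 39.9 and 43.2 CPM in Control replicates 1 to 4. All KO libraries were above all Control libraries, with KO replicate 4 lowest and KO replicate 3 highest. Spred3 rose 2.42-fold (log2 fold change of 1.27 ± 0.17 SE at an edgeR adjusted p of 0.000127, rank 4 of all genes by p). The KO libraries varied more (coefficient of variation 22.2%) than the Control libraries (6.04%).

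On the minus strand of chromosome 7, Spred3 (ENSMUSG00000037239.8) spans 29158829 to 29170411, 3.86 Mb from the end of Cic (ENSMUSG00000005442.13, chromosome 7, 25267704 to 25294159). Because the KO mice alone carried the floxed allele, DNA inherited along with it and the loss of Cic cannot be told apart for this gene. The genes closest to Spred3 did not pass. Fam98c, 2595 bases away, had 1.19 to 3.70 CPM in KO, against 2.14 to 2.95 CPM in Control (log2 fold change of -0.06 at an edgeR adjusted p of 0.975). The proteasome subunit gene Psmd8, 3777 bases away on the other side, had 76.8 to 120.5 CPM in KO, against 70.9 to 93.8 CPM in Control (0.16, edgeR adjusted p = 0.762). Ggn, a gene known from testis, overlaps Spred3 on the opposite strand by 202 exon bases and was counted at 0.928 to 2.64 CPM in KO, against 0.715 to 1.03 CPM in Control (0.86, edgeR adjusted p = 0.558). Reads in the shared bases cannot be assigned to either gene. Of the genes nearest the other members (Spry1, Spry2, Spred1 and Spred2), 4 were tested and 0 passed, with log2 fold changes of -0.12 to 0.41 and edgeR adjusted p of 0.665 to 0.999.

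Spred2 and Spred1 were the more abundant Spred genes per length (values below, in RPKM). SPRED1 is the protein lost in Legius syndrome, a human condition that resembles neurofibromatosis, and loss of Spred2 in mice impairs bone growth. Spred2 measured 161, 177, 207 and 138 CPM in KO replicates 1 to 4, against 123, 125, 114 and 113.5 CPM in Control replicates 1 to 4. The groups did not overlap, with the lowest KO library, replicate 4, at 138 CPM and the highest Control library at 125 CPM. Spred2 did not pass over all genes (log2 fold change 0.52, SE 0.13, unadjusted p = 0.000568, edgeR adjusted p = 0.102). It passed with DESeq2 (0.51, adjusted p = 0.0136) and in edgeR without KO replicate 4 (log2 fold change of 0.605 at an edgeR adjusted p of 0.0257), and edgeR adjusted p over the other settings ran up to 0.351.

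Spred1 measured 237, 215, 239 and 186 CPM in KO replicates 1 to 4, against 162.5, 170.4, 179 and 170.5 CPM in Control replicates 1 to 4. Again no KO library fell within the Control range, although KO replicate 4 at 186 CPM came near Control replicate 3 at 179 CPM. Spred1 did not pass (log2 fold change 0.36, SE 0.09, unadjusted p = 0.00513, edgeR adjusted p = 0.230), and passed in none of the 18 other settings, where adjusted p was 0.0762 to 0.613. Spred1 (ENSMUSG00000027351.14) lies on chromosome 2 from 117121374 to 117182279 and Spred2 (ENSMUSG00000045671.17) on chromosome 11 from 19924375 to 20024026, both on the plus strand with no listed gene overlapping them.

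**Figure D2:**
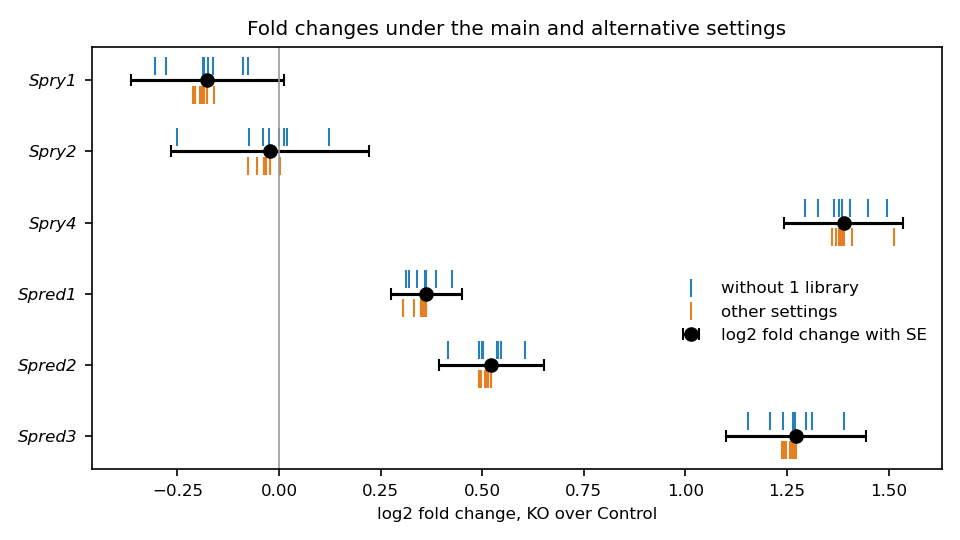
Log2 fold change of each member, KO over Control (horizontal axis; black points with SE), with the values from fits that left out 1 library (blue ticks) and from the other settings tried (orange ticks). Spry4 stayed between 1.29 and 1.51 and Spred3 between 1.15 and 1.39, while the values of Spry2 lie on either side of 0.

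Whether the members of a family differed in response was tested on the log2 ratio of 2 members within each library, which no scaling between libraries can change, for the 3 pairs in each family. The ratio of Spry4 to Spry2 was 1.49, 1.03, 0.42 and 0.78 in KO replicates 1 to 4, against -0.32, -0.96, -0.58 and -0.36 in Control replicates 1 to 4, all on the log2 scale. Every KO ratio was above 0 and every Control ratio below it, although the absolute ratio also reflects the lengths of the genes. The difference was 1.49 (SE 0.27, exact two-sided permutation p = 0.0286, adjusted p = 0.0429 over the 6 pairs). The ratio of Spry4 to Spry1 was 3.28 ± 0.37 in KO and 1.65 ± 0.26 in Control (difference 1.62, SE 0.23, exact permutation p = 0.0286, adjusted p = 0.0429). Spry2 to Spry1 was 2.34 ± 0.26 in KO and 2.21 ± 0.12 in Control, a difference of 0.14 (SE 0.15) that did not pass (exact permutation p = 0.343, adjusted p = 0.343).

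Among the Spred genes, Spred3 differed from each of its relatives. Its log2 ratio to Spred1 was -1.40, -1.004, -0.998 and -1.40 in KO replicates 1 to 4, against -2.12, -2.10, -2.16 and -1.98 in Control replicates 1 to 4. The difference was 0.89 (SE 0.12, exact permutation p = 0.0286, adjusted p = 0.0429), and against Spred2 it was 0.74 (SE 0.09, with the same p and adjusted p from the exact permutation test). Every KO library was above every Control library in these pairs. Spred2 to Spred1 was -0.37 ± 0.16 in KO and -0.52 ± 0.11 in Control, a difference of 0.15 (SE 0.10) that did not pass (exact permutation p = 0.171, adjusted p = 0.206). The smallest p that 4 against 4 libraries can give is 0.029.

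**Figure D3:**
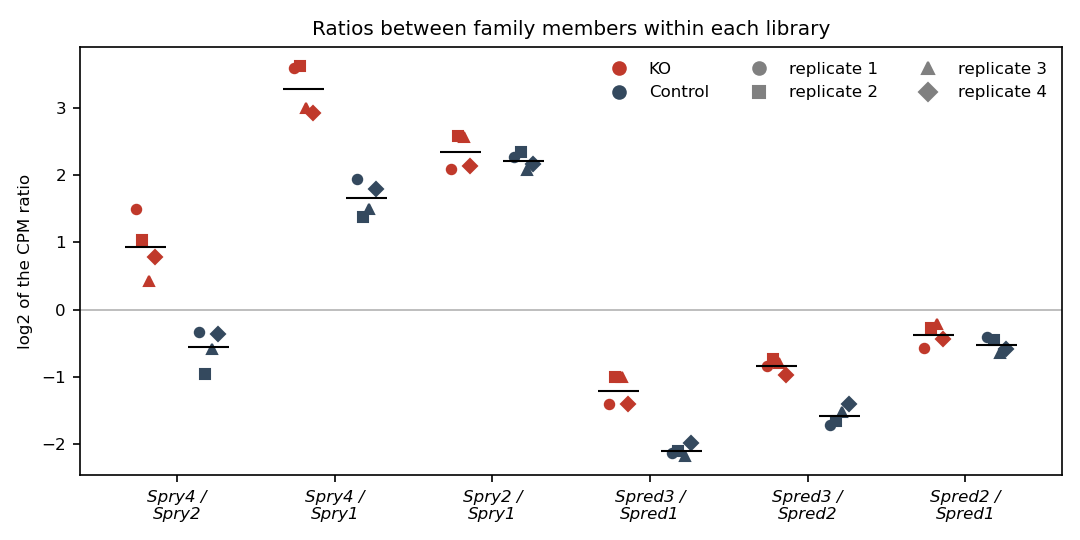
Log2 ratio of CPM between 2 members of a family (vertical axis) within each KO and each Control library, by replicate number, with group means as lines. The 4 ratios that have Spry4 or Spred3 on top separate KO from Control, and the ratios Spry2 to Spry1 and Spred2 to Spred1 overlap.

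Levels of different genes were compared per length, as reads per kilobase of annotated exon (RPKM, CPM divided by exon length in kilobases). In Control the order from high to low was Spred2 (25.7 ± 1.29 RPKM), Spred1 (25.1 ± 0.984), Spry2 (18.3 ± 1.49), Spred3 (6.44 ± 0.389), Spry4 (5.54 ± 1.09) and Spry1 (2.84 ± 0.0649, SD, n = 4 each). Spred2 and Spred1 did not differ beyond their spread, nor did Spred3 and Spry4. In KO the order of means was the same, at 37.0 ± 6.33, 32.3 ± 3.62, 18.1 ± 5.94, 15.6 ± 3.44, 14.5 ± 0.597 and 2.52 ± 0.649 RPKM (SD, n = 4 each), but Spry2 at 11.8 to 26.0 RPKM, Spred3 at 11.3 to 19.2 RPKM and Spry4 at 13.9 to 15.3 RPKM now overlapped.

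Shares of each family's summed RPKM were as follows. Spry4 made up 42.4% ± 7.25 of summed Sprouty RPKM in KO and 20.7% ± 3.13 in Control, and Spry2 made up 50.4% ± 6.98 in KO and 68.6% ± 3.08 in Control (SD, n = 4 each). Spred3 made up 18.2% ± 1.61 of summed Spred RPKM in KO and 11.2% ± 0.722 in Control, while Spred2 held 43.5% ± 1.6 in KO and 44.9% ± 2.02 in Control. The 3 Spred genes together came to 68.6 to 99.3 RPKM in KO and 56.5 to 58.6 RPKM in Control, without overlap. The 3 Sprouty genes together came to 28.5 to 44.4 RPKM in KO and 23.9 to 28.7 RPKM in Control, and KO replicate 1 lay within the Control range. These sums and shares are descriptions, with no test.

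**Figure D4:**
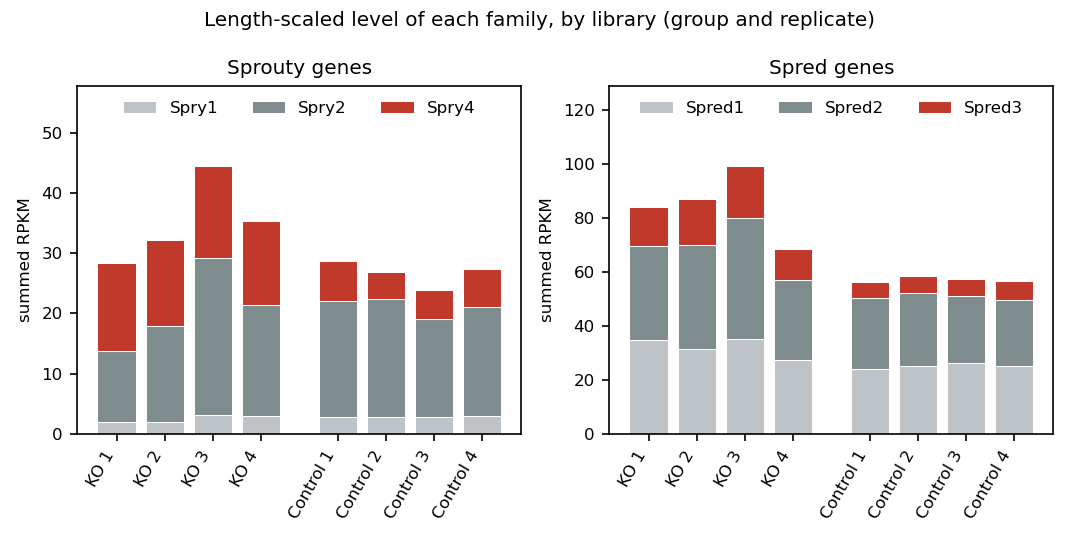
Summed RPKM of the 3 Sprouty genes (left) and the 3 Spred genes (right) in each KO and each Control library, with each gene's part of the bar in its own colour and the axis from 0. The red parts, Spry4 and Spred3, are larger in all 4 KO libraries, and KO 3 has the tallest bar in both families.

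The KO libraries also differed among themselves. KO replicate 3 had the highest value of all 4 KO libraries for each of the 6 members, and KO replicate 4 the lowest for Spry4, Spred1, Spred2 and Spred3. KO replicate 3 also held the most Cic of the KO libraries (59.3 CPM, against 34.5 to 44.9 CPM in the other KO libraries) and the highest neuronal marker sum (16353 CPM, against 12168 to 13358 CPM). ERCC spike-in counts, relative to gene counts, were 0.395% in KO replicate 3 and 0.0569% to 0.0739% in the other KO libraries, against 0.299% to 0.522% in Control, so 3 of the 4 KO libraries lay below all Control libraries. The part of these differences in the members' values was not tested. Without KO replicate 3 the log2 fold change was 1.36 for Spry4 and 1.15 for Spred3, and each passed (edgeR adjusted p = 0.00025 and 0.000736).

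Markers of other cell types also ran lower in KO in several lists, though of their members 1, the oligodendrocyte gene Cldn11, named here after its value was seen, fell (log2 fold change of -0.81 at an edgeR adjusted p of 0.0375). All 12 oligodendrocyte markers had a negative log2 fold change, and their summed level was 1675 to 3073 CPM in KO, against 2615 to 3326 CPM in Control, with Mbp at 759 CPM on average. Oligodendrocyte precursor markers, 7 of 8 negative and led by Olig1 (85.5 CPM) and Bcas1 (40.7 CPM), summed to 116 to 181 CPM in KO, against 180.4 to 217 CPM in Control. Astrocyte markers, 7 of 10 negative and led by Slc1a2 (551 CPM) and Aldoc (386 CPM), summed to 1173 to 1521 CPM in KO, against 1189 to 1606 CPM in Control. Microglial markers (9 of 10 negative, with Csf1r at 4.91 CPM on average) summed to 24.1 to 43.9 CPM in KO, against 24.0 to 68.4 CPM in Control. Endothelial and mural markers (6 of 11 negative, led by Rgs5 at 5.61 CPM and Vtn at 5.15 CPM) summed to 11.1 to 33.9 CPM in KO, against 12.2 to 47.4 CPM in Control, and ependymal markers (6 of 8 negative, led by Foxj1 at 10.04 CPM and Ccdc153 at 9.10 CPM) to 24.0 to 40.6 CPM in KO, against 33.4 to 48.3 CPM in Control. No marker in these lists was at 0 in all libraries. At an unadjusted p under 0.05 in edgeR, 6 of 12 oligodendrocyte and 2 of 8 precursor markers were lower. The astrocyte, microglial, endothelial and ependymal lists each had 1 such marker. Over all genes tested, 10.6% had such a p in either direction. In a fit with the mean of oligodendrocyte, microglial and endothelial markers as a covariate, Spry4 had a log2 fold change of 1.51 (edgeR adjusted p = 2.02e-05) and Spred3 of 1.24 (edgeR adjusted p = 0.000718), Spred2 had 0.50 and Spred1 0.31, and the last pair did not pass. KO replicate 1, the library with the lowest precursor sum (116 CPM), had the lowest Spry2 of all libraries (24.7 CPM). Spry2 was highest in KO replicate 3 (54.2 CPM), whose precursor sum (167 CPM) was below every Control library. Spry1 was lowest in KO replicate 2 (5.58 CPM), which had the highest precursor sum in KO (181 CPM). The part of such cells in the levels of Spry1 and Spry2 was not tested.

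Around the members, 92 of 94 other genes of the pathway were tested. Of these, 3 rose and 0 fell by edgeR adjusted p, against 0.194% of all genes higher and 0.0648% lower. The log2 fold change was positive for 57 and negative for 35, against 8309 positive among all 15438 genes. The median was 0.05, against 0.02 for all genes tested. Of 19 receptor tyrosine kinases 0 passed (13 positive, median 0.07), and 2 had an unadjusted p under 0.05, a share close to the 10.6% of all genes tested. The 2 of smallest p were the insulin-like growth factor receptor Igf1r, at 49.2 ± 3.84 CPM in KO and 38.6 ± 5.32 CPM in Control (0.35, edgeR adjusted p = 0.322), and the neurotrophin receptor Ntrk3, at 46.9 ± 3.78 CPM in KO and 39.1 ± 3.41 CPM in Control (0.26, edgeR adjusted p = 0.441). Of 14 adaptors and exchange factors 0 passed and 12 were positive (median 0.05). At an unadjusted p under 0.05 in edgeR, 3 of the 14 were higher, against 6.06% of all genes. The Shc-type adaptors Shc4, at 8.29 ± 2.67 CPM in KO and 3.92 ± 0.908 CPM in Control (1.08, edgeR adjusted p = 0.111), and Shc3, at 37.3 ± 2.95 CPM in KO and 27.7 ± 4.34 CPM in Control (0.43, edgeR adjusted p = 0.228), had the smallest p.

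The chain from RAS to ERK itself had 0 of 17 genes called, with 8 positive, 9 negative and a median of -0.001. At an unadjusted p under 0.05 in edgeR, 1 was higher and 1 lower, against 10.6% of all genes in either direction. The scaffold Ksr1 had 7.85 ± 1.32 CPM in KO and 11.2 ± 2.50 CPM in Control (-0.52, edgeR adjusted p = 0.352) and the kinase Braf 176 ± 26.2 CPM in KO and 146 ± 16.6 CPM in Control (0.27, edgeR adjusted p = 0.470). Of 15 proteins known to bind Sprouty or Spred proteins or to act on them, 0 passed, 12 were positive and the median was 0.08. Of these 15, 3 were higher at an unadjusted p under 0.05 in edgeR, against 6.06% of all genes. The ubiquitin ligase genes Cbl, at 62.1 ± 9.44 CPM in KO and 44.7 ± 6.71 CPM in Control (0.47, edgeR adjusted p = 0.199), and Nedd4, at 360 ± 47.0 CPM in KO and 278 ± 23.6 CPM in Control (0.37, edgeR adjusted p = 0.253), had the smallest p.

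Of 16 other inhibitors of the pathway 1 rose, 0 fell and 7 were positive (median -0.01). At an unadjusted p under 0.05 in edgeR, 2 were higher and 0 lower, against 10.6% of all genes in either direction. Dusp4, a phosphatase that acts on ERK in the nucleus, measured 7.30 to 12.9 CPM in KO, against 3.73 to 4.34 CPM in Control (1.22, SE 0.20, edgeR adjusted p = 0.0238), and Dusp1, a related phosphatase of MAP kinases, had 65.2 ± 19.4 CPM in KO and 48.8 ± 7.90 CPM in Control (0.42, edgeR adjusted p = 0.396). Of 12 transcription factors that respond to ERK, 3 were higher and 1 lower at an unadjusted p under 0.05 in edgeR. Over all genes, 6.06% were higher at that p and 10.6% had it in either direction. By adjusted p, 2 of the 12 rose and 0 fell, against 0.194% of all genes higher and 0.0648% lower. Of the 12, 6 were positive, and the median was 0.02. Both were ETS factors of the PEA3 group: Etv5, at 64.7 to 88.7 CPM in KO, against 27.1 to 37.4 CPM in Control (1.29, edgeR adjusted p = 7.38e-05), and Etv4, at 4.80 to 6.13 CPM in KO, against 0.804 to 1.69 CPM in Control (2.24, edgeR adjusted p = 0.00169).

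The genes whose pattern over the 8 libraries was most like that of a member were found by the root mean square difference of log2 CPM, each gene centred on its own mean, among 13653 genes of at least 1 CPM on average. For Spry4 they were Proser3 (0.18), Etv5 (0.20), Loxl1 (0.23), Spred3 (0.27) and Dusp4 (0.28). For Spred3 they were Lcp2 (0.15), Proser3 (0.21), A730046J19Rik (0.23), Onecut1 (0.23) and Spry4 (0.27). Spry4 and Spred3 thus stand in each other's list. Loxl1 (1.66 CPM in KO and 0.624 CPM in Control) and Onecut1 (1.52 CPM in KO and 0.769 CPM in Control) were close to the limit of 1 CPM. They did not pass (edgeR adjusted p = 0.264 and 0.470), and the other genes of both lists did. Between the other members the same measure was 0.14 for Spred1 with Spred2 and 0.19 for Spry1 with Spry2, and 0.81 for Spry4 with Spry2. Since the groups separate for most of these genes, the measure mainly reflects the size of the KO to Control difference, and no correlation is given.

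The promoters of the members were read for octamers that Capicua is known to bind, TGAATGAA, TGAATGGA, TCAATGAA and TCAATGGA, on both strands, because fold changes differed among the members. RefSeq promoter windows of 300 bases (250 before to 50 after the annotated start, build GRCm38.p6) matched 5 of the 6 members, and that of Spry4 was not used here. An octamer was found in 2 of the 5 windows, against 3.84% of 32817 windows over all genes (1.3% for TGAATGAA and 0.75% for TCAATGAA), and no matches overlapped. Spred3, which rose, has TGAATGAA on the sense strand from 10 bases before the RefSeq start used. Spry2, which did not pass, has TCAATGAA on the antisense strand, from 54 bases before its start, where it reads TTCATTGA. No octamer was found in the windows of Spry1, Spred1 and Spred2. The 250 bases before each of these starts are given 5′ to 3′ on the gene's strand, for Spred3 chr7:29168648-29168897 (minus strand) and for Spry2 chr14:105896820-105897069 (minus strand), with the octamer in capitals.
Spred3: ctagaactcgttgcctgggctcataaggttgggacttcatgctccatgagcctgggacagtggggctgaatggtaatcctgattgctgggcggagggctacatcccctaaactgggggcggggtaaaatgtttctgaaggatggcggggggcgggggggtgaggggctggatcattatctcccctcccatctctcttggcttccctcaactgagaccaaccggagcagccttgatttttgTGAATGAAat
Spry2: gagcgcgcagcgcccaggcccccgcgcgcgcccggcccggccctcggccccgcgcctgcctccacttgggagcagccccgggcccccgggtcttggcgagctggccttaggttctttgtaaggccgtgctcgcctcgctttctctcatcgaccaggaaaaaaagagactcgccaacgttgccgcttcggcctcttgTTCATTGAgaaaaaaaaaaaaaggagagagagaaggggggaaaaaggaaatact
The window used for Spred3 lies inside the annotated gene, which has 4 annotated transcripts and its 5′ end at 29170411. The bases before that 5′ end were not searched. A match is a run of letters and does not show binding, and the windows leave out introns and distant elements. The G and C content of the windows was 55.0% for Spred3, 57.0% for Spred2, 62.7% for Spry2, 64.3% for Spry1 and 72.3% for Spred1.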

How the data were processed

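Per the submitters' processing notes, the authors aligned reads to mm10 with TopHat2 2.0.9 and counted with HTSeq; DESeq2 is also named there. The sources used here do not name the annotation, the strand setting or a filter. Each library has its own deposited table of raw counts by gene symbol, whose 92 ERCC spike-in rows and 5 counter rows entered neither library sizes nor tests. Counts carry no molecular identifiers, and reads with several alignments (63.3% to 81.9% of counted records) were dropped, which lowers genes with near-identical copies.

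Genes were filtered with filterByExpr (minimum count 10, minimum total 15), scaled with TMM and fitted with edgeR 4.0.16 (robust quasi-likelihood, R 4.3.3), comparing KO with Control in 1 model of the 8 libraries, without covariates, at a threshold of 0.05. Simulated data served to test the model first, on all 15438 genes. SE uses log2 CPM with a prior count of 2. RPKM divides CPM by exon length in GENCODE M21 (GRCm38, which need not be the authors' annotation). Ratios were tested by exact two-sided permutation over libraries. Replicate numbers are not tied to animals in the labels, and p-values therefore describe the spread between libraries, which may be technical. No pair of the 28 agreed within sampling noise (chi-square per degree of freedom 25.9 or more).

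Named were the 6 members, Cic, pathway genes that passed plus the 2 of smallest p in each list, the 2 most abundant markers in each list (of which 2 are not reported here), the 5 genes nearest in pattern to Spry4 and to Spred3, and the genes beside Spry4 and Spred3 or overlapping a member; Otp, as the lineage's defining gene, and Cldn11 were added after their values were seen. The members and lists were chosen with earlier results of these data known. The alternatives were 3 other scalings or size factors, Rn45s left out, 2 other filters, DESeq2 1.42.0, a fit that was not robust, a replicate block, a marker covariate and each library left out.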

Additional observations from a re-analysis of the deposited data

Results flagged for a closer look

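In a group of 4, a library was marked where its gap to the nearest other, as a share of the group's range, was over Dixon's critical value; 66 groups were looked at and chance marks about 1 in 20. No Sprouty or Spred gene and no ratio between them was marked. Cic in Control replicate 2 was 72.4 CPM, against 101 to 103 CPM in the other Control libraries, and Spry4 in that library was the lowest of all, at 21.1 CPM. The oligodendrocyte precursor marker sum in Control replicate 2 was 180.4 CPM, against 211 to 217 CPM in the other Control libraries. The neuronal marker sum in Control replicate 4 was 13961 CPM, against 11899 to 12060 CPM. Their part in the members' results was not tested; without Control replicate 2 the log2 fold change of Spry4 was 1.29 (edgeR adjusted p = 0.00116), and without Control replicate 4 it was 1.45 (edgeR adjusted p = 0.00018).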

How the results depend on the processing

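Spry4 and Spred3 passed in all 19 settings tried, at log2 fold changes of 1.29 to 1.51 and 1.15 to 1.39. Spred2 passed in 2 of 19 (DESeq2, 0.51, and without KO replicate 4) and ran from 0.42 to 0.605 when 1 library was left out, so the number of members called was 2 or 3. Spry2 turned positive with the marker covariate (0.0012) and ran from -0.25 to 0.12 when 1 library was left out, with no call in any setting. The number of genes called over the whole table was 40, and became 26 with total counts only, 198 with DESeq2, 22 with the marker covariate and 14 to 53 when 1 library was left out (26 without KO replicate 2, and 19, 17, 26 and 14 when Control replicate 1, 2, 3 or 4 was the one left out); the cause was not tested. With the replicate block it was 65, and 2 members were called. Same-numbered libraries deviated together at correlations of -0.05, -0.05, -0.0014 and 0.10, so the numbers are not taken as pairs. The within-library ratios kept their direction with log2(CPM + 1) and without any 1 library; permuting within replicate numbers cannot give a p below 0.125. The fewest counts behind a member were the 243 to 484 of Spry1.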
